A study of Danio rerio with 12 samples.

Results

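The Hippo pathway sets how much of the co-activator Yap and its relative Taz can enter the nucleus. A kinase cascade (Mst, Lats and their scaffold and co-activator partners) phosphorylates both proteins and keeps them in the cytoplasm. When the cascade is quiet, as on stiff matrix or in growing tissue, Yap and Taz bind the DNA-binding Tead proteins and switch on genes for matricellular CCN proteins, among others. In hearts of mice, active Yap is known to drive cardiomyocyte proliferation. The messenger RNA of a co-activator does not report where its protein is, so the level of its target genes is the usual transcriptional readout.

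For this pathway 10 genes were followed by symbol, out of 38049 genes in the count tables. They are the co-activators *yap1* and *wwtr1* (which encodes Taz), the DNA-binding partners *tead1a* and *tead3b*, the CCN targets *ctgfa*, *ctgfb*, *cyr61* and *cyr61l1*, and the angiomotin-like genes *amotl2a* and *amotl2b*. Angiomotin-like proteins sit at cell junctions, bind Yap outside the nucleus and are themselves Yap targets. All 10 were in the tables, and all 10 were among the 19014 genes that passed the filter on low counts. *cyr61l1* passed it through the injured libraries, with at most 5 counts in any uninjured library, so a difference with injury was built into its presence here.

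RNA was sequenced from the ventricular apex of adult zebrafish of 3 to 18 months in 6 groups of 2 libraries, each from 6 pooled apices. The mutants were *nkx2.5-/-;Tg(hsp70l:nkx2.5-EGFP)*, at 7 days after amputation of the apex (MT7) and uninjured (MT0). Both kinds of wild-type fish served as controls at the same stages: the transgenic line *Tg(hsp70l:nkx2.5-EGFP)* (TG7 and TG0), and siblings without the transgene (WT7 and WT0). Every fish, of each genotype, had been heat-shocked at 37 °C for 1 h at 21 somites. In the mutants this embryonic pulse of Nkx2.5, a cardiac transcription factor, from the ubiquitous hsp70l heat-shock promoter replaced the missing protein and carried them to adulthood. The transgene stays in MT and TG adults and is reported to be switched on briefly by amputation, so WT is free of the transgene and TG is not. The libraries are described as biological replicates, and their p-values measure the spread between pools.

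Depth was 14234818 to 24544150 counts per library. Levels are given as CPM, counts per megaread, after the library total was corrected for composition by TMM scaling. A library of this depth resolves 3 counts at 0.121 to 0.224 CPM, a limit for counting error only. *nkx2.5* itself had 205.2 and 310.9 CPM in MT7, 450.1 and 345.2 CPM in MT0, 165.7 and 185.6 CPM in TG7, 266.9 and 271.5 CPM in TG0, 219.7 and 184.5 CPM in WT7, and 269.6 and 271.0 CPM in WT0, so its count does not mark the mutant genotype. All 5 cardiomyocyte markers found in the tables were detected in every library, with summed levels of 19770 to 28840 CPM in MT7, 34620 to 48550 CPM in MT0, 41190 to 46480 CPM in TG7, 63850 to 70030 CPM in TG0, 41780 to 44450 CPM in WT7 and 55770 to 62270 CPM in WT0. By the call rule given below, single markers did not all follow the sums. In WT7 against WT0, 1 of the 5 was higher (13.2% of all tested genes) and none lower (11.0%). The same held in TG7 against TG0 (6.69% and 2.68%), while in MT7 against MT0, 1 was lower (6.48%) and none higher (5.56%). In MT0, 1 was higher and 1 lower than in WT0, and 1 was lower than in TG0. In MT7, 3 were lower than in WT7 (5.62%). In bulk tissue, fewer cells of a type and less RNA per cell cannot be told apart.

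WT0 replicate 1 stood apart from the other libraries, and it touches several of the 10 genes. In it, 331 of 19014 tested genes lay at least 4-fold above every other library, against 0 to 68 genes in each of the other 11 libraries. Both *wwtr1* and *tead3b* were among the 331, as were 6 of the 47 further pathway genes tested (*wwc1*, *taok2b*, *amotl1*, *wtip*, *crim1* and *tgfb2*, chosen after their values were seen). For *tead3b* the library exceeded the highest of the other 11 by 2.89 on the log2 scale, and for *wwtr1* by 2.61. Calls against WT0 that depend on it are therefore also given without it below, gene by gene or as counts over a list, and the cause of its departure was not tested.

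**Figure D1:**
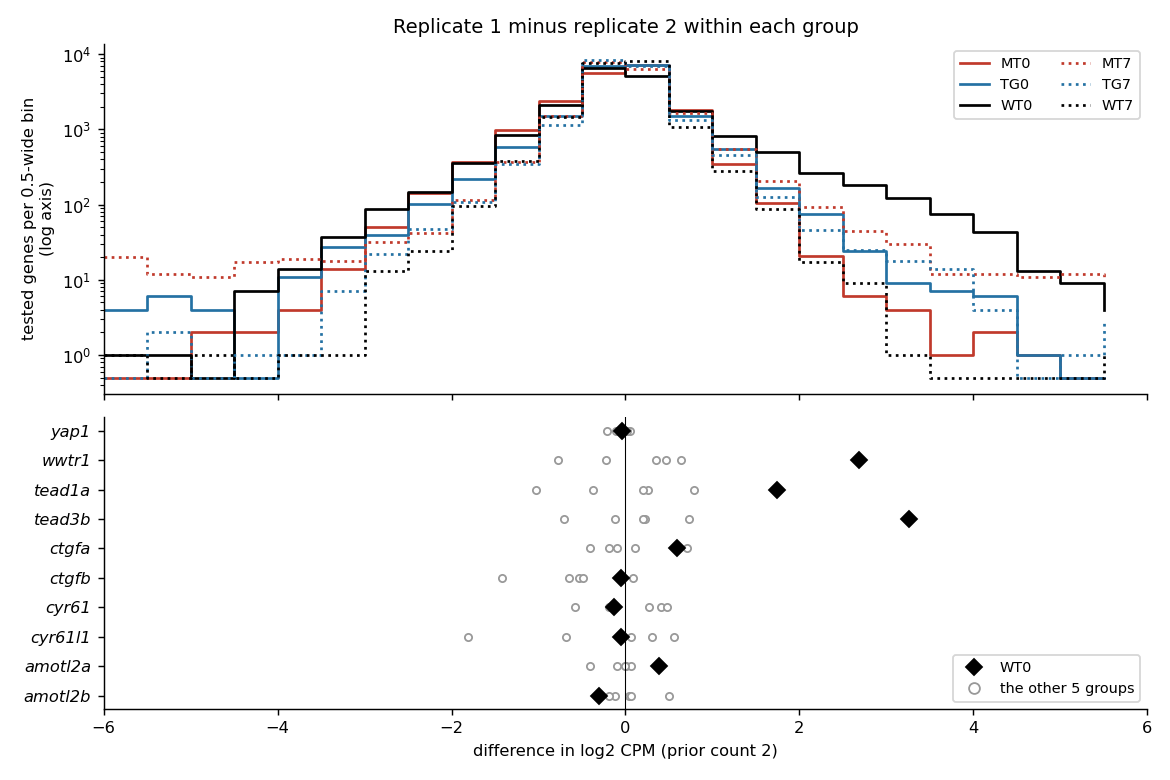
Difference in log2 CPM between replicate 1 and replicate 2 within each of the 6 groups: number of tested genes per 0.5-wide bin on a log axis (top), and the 10 genes (bottom; black diamonds, WT0; open circles, the other 5 groups). The WT0 curve carries a long right shoulder, and the WT0 diamonds of *tead3b* (3.26), *wwtr1* (2.69) and *tead1a* (1.74) lie to the right of all their circles.

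*yap1* was expressed at nearly the same level throughout. It had 132.2 and 153.3 CPM in MT7, 147.2 and 146.5 CPM in MT0, 141.2 and 152.8 CPM in TG7, 144.2 and 139.2 CPM in TG0, 153.2 and 151.9 CPM in WT7, and 137.4 and 140.9 CPM in WT0. Ordered by mean, every group overlapped the next one. No comparison was called (absolute log2 fold change above 0.5 with a Benjamini-Hochberg adjusted p under 0.05 in edgeR's quasi-likelihood test, the rule used throughout). The 3 injury changes were -0.04 ± 0.11 (SE) in mutants, 0.05 ± 0.11 in TG and 0.13 ± 0.11 in WT on the log2 scale. Their 95% intervals ran from -0.28 to 0.20, from -0.19 to 0.30 and from -0.11 to 0.38, all inside the 0.5 that a call needs. The uninjured mutants differed from TG0 by 0.05 (interval -0.19 to 0.30) and from WT0 by 0.08 (interval -0.17 to 0.32).

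*wwtr1*, the gene for Taz, was set apart by a single library. It had 2.714 and 4.712 CPM in MT0 and 2.683 and 1.911 CPM in TG0, against 33.22 and 5.07 CPM in WT0. The 10 libraries outside WT0 lay between 1.911 and 5.346 CPM. Against WT0 the fit called *wwtr1* lower in MT0 (log2 fold change -2.36 ± 0.68, edgeR adjusted p = 0.0288) and in TG0 (-3.07 ± 0.71, adjusted p = 0.0145). Without WT0 replicate 1 both calls were lost, at -0.43 (adjusted p = 0.536) and -1.14 (adjusted p = 0.128). The call in MT0 was also lost without any of 8 other libraries (both replicates of TG0, MT0, WT7 and TG7, adjusted p 0.0505 to 0.157), and the call in TG0 without either TG0 library (0.0876 and 0.106). With injury the change was 0.02 ± 0.67 in mutants and 1.02 ± 0.70 in TG, where both TG7 libraries (5.239 and 4.09 CPM) lay above both TG0 libraries, and neither was called. In WT7 against WT0 it was -1.95 ± 0.66 (adjusted p = 0.0544, not called), and -0.03 without WT0 replicate 1.

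The Tead genes were read at low levels. *tead3b*, like the other Tead genes a DNA-binding partner of Yap and Taz, had 1.201 and 0.6836 CPM in MT7, 1.583 and 2.648 CPM in MT0, 1.424 and 1.227 CPM in TG7, 0.7318 and 0.8046 CPM in TG0, 1.456 and 1.237 CPM in WT7, and 20.2 and 2.013 CPM in WT0. Its second WT0 library thus lay inside the range of MT0. Calls of a fall were made in MT0 against WT0 (-2.38 ± 0.79, edgeR adjusted p = 0.0487), in TG0 against WT0 (-3.84 ± 0.87, adjusted p = 0.0132) and in WT7 against WT0 (-3.04 ± 0.82, adjusted p = 0.0236). Without WT0 replicate 1 these became 0.09 (adjusted p = 0.939), -1.38 (0.123) and -0.58 (0.496), and none was called. Among the libraries that remain, MT0 exceeded TG0 in *tead3b* by 1.46 (adjusted p = 0.257 with all 12 libraries). That difference was called without WT0 replicate 1 (1.46, adjusted p = 0.0341) or without WT0 replicate 2 (1.46, adjusted p = 0.0218).

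The MT0 call of *tead3b* against WT0 was lost without any 1 of the libraries other than WT0 replicate 2, with adjusted p of 0.0593 to 0.939. The TG0 call was lost without either TG0 library (0.0887 and 0.101), and the WT7 call without either WT7 library (0.129 and 0.16). *tead1a* had 3.271 and 1.85 CPM in MT7, 0.848 and 1.84 CPM in MT0, 2.221 and 1.922 CPM in TG7, 1.464 and 1.207 CPM in TG0, 1.893 and 2.474 CPM in WT7, and 5.221 and 1.491 CPM in WT0, and no comparison was called. Its fitted differences of -1.31 in MT0 and -1.33 in TG0 against WT0 became -0.13 and -0.16 without WT0 replicate 1, and they were called without WT0 replicate 2 (-1.92, adjusted p = 0.0201, and -1.96, adjusted p = 0.0198).

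**Figure D2:**
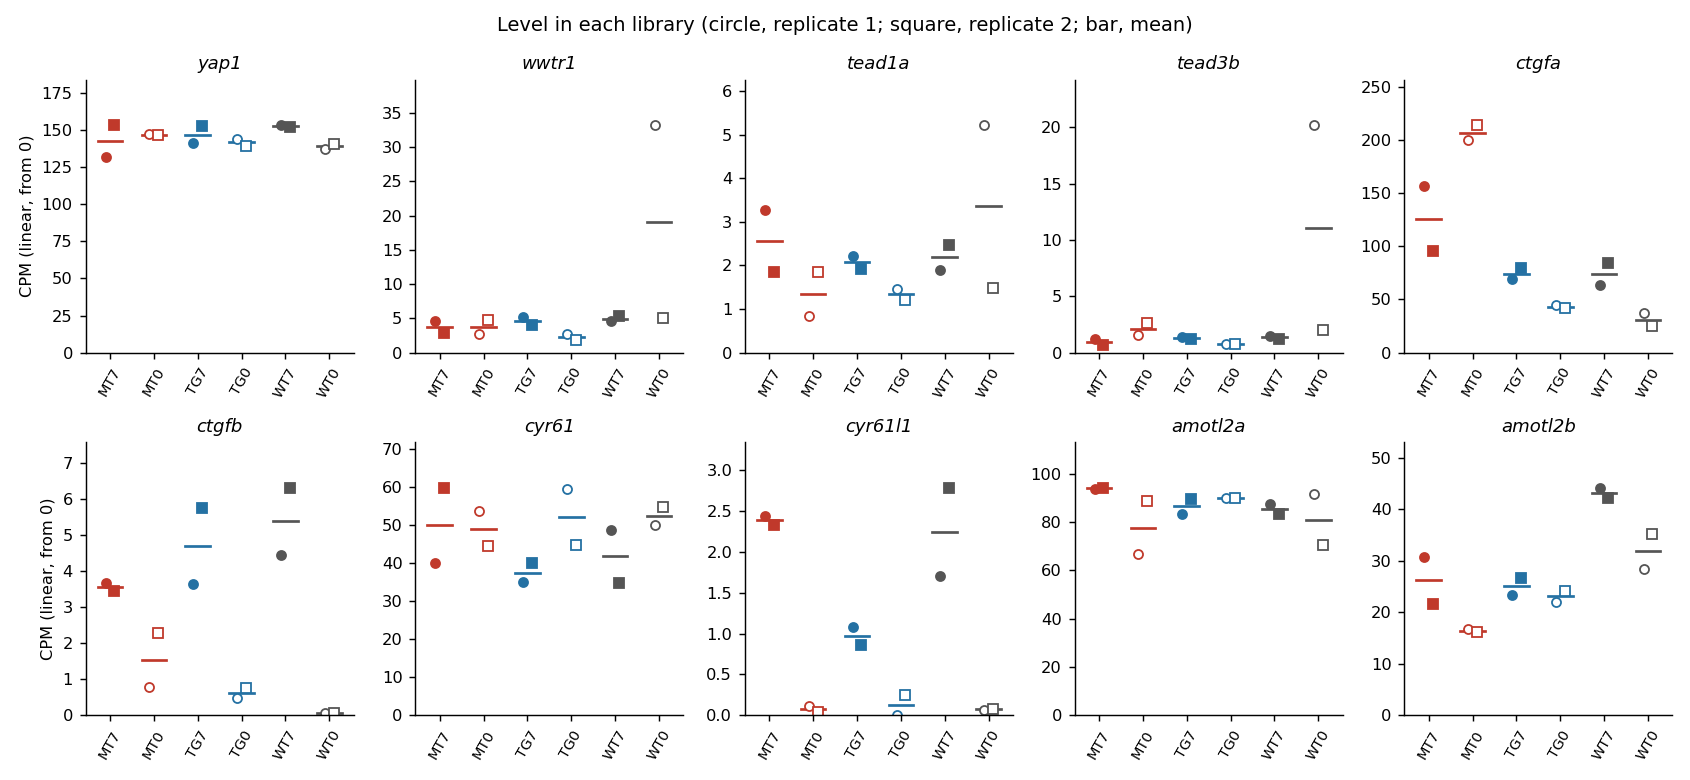
Level of each of the 10 genes in every library (CPM, linear axis from 0; filled, injured; open, uninjured; circle, replicate 1; square, replicate 2; bar, mean of the 2). *yap1* has neighbouring groups that all overlap, *ctgfa* is highest in MT0 (199.6 and 213.8 CPM), and in *wwtr1* and *tead3b* only WT0 replicate 1 (33.22 and 20.2 CPM) lies far above the rest.

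*ctgfa* encodes connective tissue growth factor, a secreted matricellular protein and one of the most used Yap targets, and it separated the uninjured mutants from both controls. It had 199.6 and 213.8 CPM in MT0, against 44.76 and 41.49 CPM in TG0 and 37.22 and 24.68 CPM in WT0. The log2 fold change was 2.26 ± 0.26 against TG0 (edgeR adjusted p = 0.000412) and 2.74 ± 0.26 against WT0 (adjusted p = 0.00017). Both MT0 libraries lay above all 10 other libraries, and both calls were kept in all 19 alternative fits. Without WT0 replicate 1 the difference from WT0 was 3.08 (adjusted p = 0.00131).

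With injury, *ctgfa* lay higher in WT and TG and lower in mutants, and only the rise in WT was called with all libraries. WT7 had 63.44 and 84.2 CPM, both above WT0, and the rise of 1.25 ± 0.25 was called (edgeR adjusted p = 0.00744), though not without WT7 replicate 2 (1.04, adjusted p = 0.0698). TG7 had 69.48 and 79.22 CPM, also above TG0, with a change of 0.79 ± 0.25 that was not called (adjusted p = 0.074) but passed without either MT7 library (0.80, adjusted p 0.0412 and 0.0415). MT7 had 156.5 and 95.62 CPM, both below MT0, with a change of -0.71 ± 0.25 that was not called (adjusted p = 0.0839) but passed without MT7 replicate 1 (-1.12, adjusted p = 0.0474). Both MT7 libraries still lay above all TG7 and WT7 libraries. The difference of 0.77 ± 0.25 from WT7 (adjusted p = 0.077) and of 0.76 ± 0.25 from TG7 (adjusted p = 0.148) was not called, and both passed without MT7 replicate 2 (1.103, adjusted p = 0.0211, and 1.08, adjusted p = 0.0405). By mean the order was MT0, MT7, TG7, WT7, TG0 and WT0, and of the neighbouring groups in it only TG7 and WT7 overlapped.

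The injury change of *ctgfa* itself differed between mutants and WT. The difference of the 2 log2 changes, mutant minus WT, was -1.97 ± 0.35 (edgeR adjusted p = 0.0265), and 1.51% of all tested genes were called below 0 in that comparison. Since MT0 enters both, a high MT0 level and a low injury change in mutants are not separate observations. Against TG the difference was -1.50 ± 0.35 (adjusted p = 0.0709) and was not called. The call against WT was lost without MT0 replicate 2, either TG0 library, either WT7 library or either TG7 library, at -1.77 to -2.16 with adjusted p of 0.0525 to 0.142, and without WT0 replicate 1 it was kept (-2.31, adjusted p = 0.036).

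*ctgfb*, the second zebrafish copy of the same gene, was nearly silent in WT0 and was read in every injured library. Raw counts were 89 and 86 in MT7, 14 and 51 in MT0, 64 and 141 in TG7, 8 and 15 in TG0, 92 and 143 in WT7, and 1 and 1 in WT0. In CPM these were 3.685 and 3.458 in MT7, 0.7914 and 2.289 in MT0, 3.645 and 5.767 in TG7, 0.4878 and 0.7543 in TG0, and 4.466 and 6.317 in WT7. All 6 injured libraries lay above all 6 uninjured ones, and among them TG7 overlapped MT7 and WT7, while MT7 lay below WT7.

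The summed counts of *ctgfb*, relative to TMM-corrected library totals, were 76.5 times as high in WT7 as in WT0, with a 95% counting interval of 21 to 636 that reflects the 2 counts of WT0 (edgeR log2 fold change 6.13 ± 0.71, adjusted p = 0.00057). These counting intervals leave out the spread between libraries, which the edgeR standard errors include. In TG7 against TG0 the ratio was 7.7 (interval 4.99 to 12.4) and the change was also called (2.90 ± 0.51, edgeR adjusted p = 0.00807). In MT7 against MT0 it was 2.2 (interval 1.64 to 2.97), and the change of 1.19 ± 0.46 was not called (adjusted p = 0.116) except without MT0 replicate 2 (2.15, adjusted p = 0.0253). The TG7 call was lost without TG7 replicate 2 (2.53, adjusted p = 0.0617) or without either TG0 library (2.64, 0.0834, and 3.26, 0.0582).

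Before injury, *ctgfb* was called higher in MT0 than in WT0 (4.34 ± 0.76, edgeR adjusted p = 0.00318, a ratio of 22.9 with an interval of 6.09 to 193) and higher in TG0 than in WT0 (3.03 ± 0.84, adjusted p = 0.0274, a ratio of 8.93 with an interval of 2.21 to 78.1). The second of these was lost without either TG0 or either WT0 library (2.68 to 3.31, adjusted p 0.0613 to 0.144). MT0 exceeded TG0 by 1.31 ± 0.52 (adjusted p = 0.0979), which was called without MT0 replicate 1 (1.86, adjusted p = 0.0209). The injury change was smaller in mutants than in WT by -4.94 ± 0.89 (adjusted p = 0.0276), with a WT baseline of 2 counts in all. That call was lost without WT0 replicate 1 (-4.89, adjusted p = 0.107), without MT0 replicate 2, or without either library of WT7, TG7 or MT7 (-3.98 to -5.16, adjusted p 0.0525 to 0.119). The mutant change differed from the TG change by -1.71 ± 0.68 (edgeR adjusted p = 0.263), which was not called. The TG change in turn differed from the WT change by -3.23 ± 0.96 (adjusted p = 0.0911), also not called. After injury no genotype differed from another in *ctgfb* by a call, with log2 differences of -0.59 ± 0.44 in MT7 against WT7 and -0.40 ± 0.44 in MT7 against TG7.

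*cyr61* and *cyr61l1* encode matricellular proteins of the same CCN family, and they behaved differently from each other. *cyr61* had 40.04 and 59.71 CPM in MT7, 53.59 and 44.34 CPM in MT0, 34.91 and 39.88 CPM in TG7, 59.33 and 44.71 CPM in TG0, 48.64 and 34.77 CPM in WT7, and 49.97 and 54.72 CPM in WT0. None of its 12 comparisons was called, and neighbouring groups in its order all overlapped. Its injury changes were 0.03 (95% interval -0.48 to 0.53) in mutants, -0.47 (-0.98 to 0.03) in TG and -0.33 (-0.84 to 0.18) in WT, so the intervals do not exclude a change as large as a call needs.

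*cyr61l1* was at or near 0 counts before injury and present after it in every genotype. Its counts were 59 and 58 in MT7, 2 and 1 in MT0, 19 and 21 in TG7, 0 and 5 in TG0, 35 and 63 in WT7, and 1 and 1 in WT0. Every injured library thus held more counts than any uninjured one. *cyr61l1* passed the filter on low counts through the injured libraries, so this direction was built into its presence here. The ratio of counts, relative to TMM-corrected library totals, was 31.8 in MT7 against MT0 (95% counting interval 10.6 to 156), 6.91 in TG7 against TG0 (2.73 to 22.4) and 31.9 in WT7 against WT0 (8.6 to 267). The change was called in mutants (edgeR log2 fold change 4.86 ± 0.84, adjusted p = 0.00719) and in WT (4.86 ± 0.90, adjusted p = 0.00493), and not in TG (2.79 ± 0.80, adjusted p = 0.055). Without MT0 replicate 1 the call in mutants was lost (5.54, adjusted p = 0.0585), and without TG0 replicate 2, which leaves a TG0 library with no count, the TG change was called (adjusted p = 0.0274). TG7 also had the lowest injured level, 1.082 and 0.8589 CPM against 1.699 and 2.783 CPM in WT7, a difference of -1.21 ± 0.63 that was not called (adjusted p = 0.479). The injury change of *cyr61l1* in mutants differed from that in WT by 0.00 (adjusted p = 1) and from that in TG by 2.07 ± 1.25 (adjusted p = 0.489).

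Of the angiomotin-like pair, *amotl2b* was called in some comparisons and *amotl2a* in none. *amotl2a* lay between 66.71 and 94.09 CPM in all 12 libraries, with MT7 at 93.74 and 94.09 CPM and MT0 at 66.71 and 88.64 CPM. *amotl2b* had 30.76 and 21.63 CPM in MT7, 16.68 and 16.2 CPM in MT0, 23.41 and 26.67 CPM in TG7, 22.07 and 24.09 CPM in TG0, 44.17 and 42.23 CPM in WT7, and 28.48 and 35.26 CPM in WT0. Both MT0 libraries were the lowest of the 12, and both WT7 libraries were the highest.

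*amotl2b* was called lower in MT0 than in WT0 (-0.95 ± 0.18, edgeR adjusted p = 0.00428), a call kept in all 19 alternative fits. MT0 lay below TG0 by -0.49 ± 0.18 (adjusted p = 0.0731), and TG0 lay below WT0 by -0.46 ± 0.18 (adjusted p = 0.0796), so the transgenic control sat between the mutants and WT without a call on either side. After injury *amotl2b* rose in mutants (0.67 ± 0.18, adjusted p = 0.0347) and remained below WT7 (-0.72 ± 0.17, adjusted p = 0.027). TG7 lay as far below WT7 (-0.79 ± 0.17, adjusted p = 0.0656), a difference called without either MT7 library (-0.77, adjusted p 0.0371 and 0.0372), and MT7 differed from TG7 by 0.06 (95% interval -0.32 to 0.45). The mutant rise was lost without MT7 replicate 1 (0.39, adjusted p = 0.259), without either MT0 library (0.68, 0.159, and 0.64, 0.106) and without any library of TG0, WT7 or TG7 (0.66 to 0.67, 0.0596 to 0.0696). The difference from WT7 was lost without MT7 replicate 2 (-0.47, 0.131), without either WT7 library (-0.67, 0.186, and -0.76, 0.116) and without either TG7 library (-0.73, 0.05 and 0.0505). Scaling by library totals alone gave -0.45 (adjusted p = 0.191) in MT7 against WT7.

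**Figure D3:**
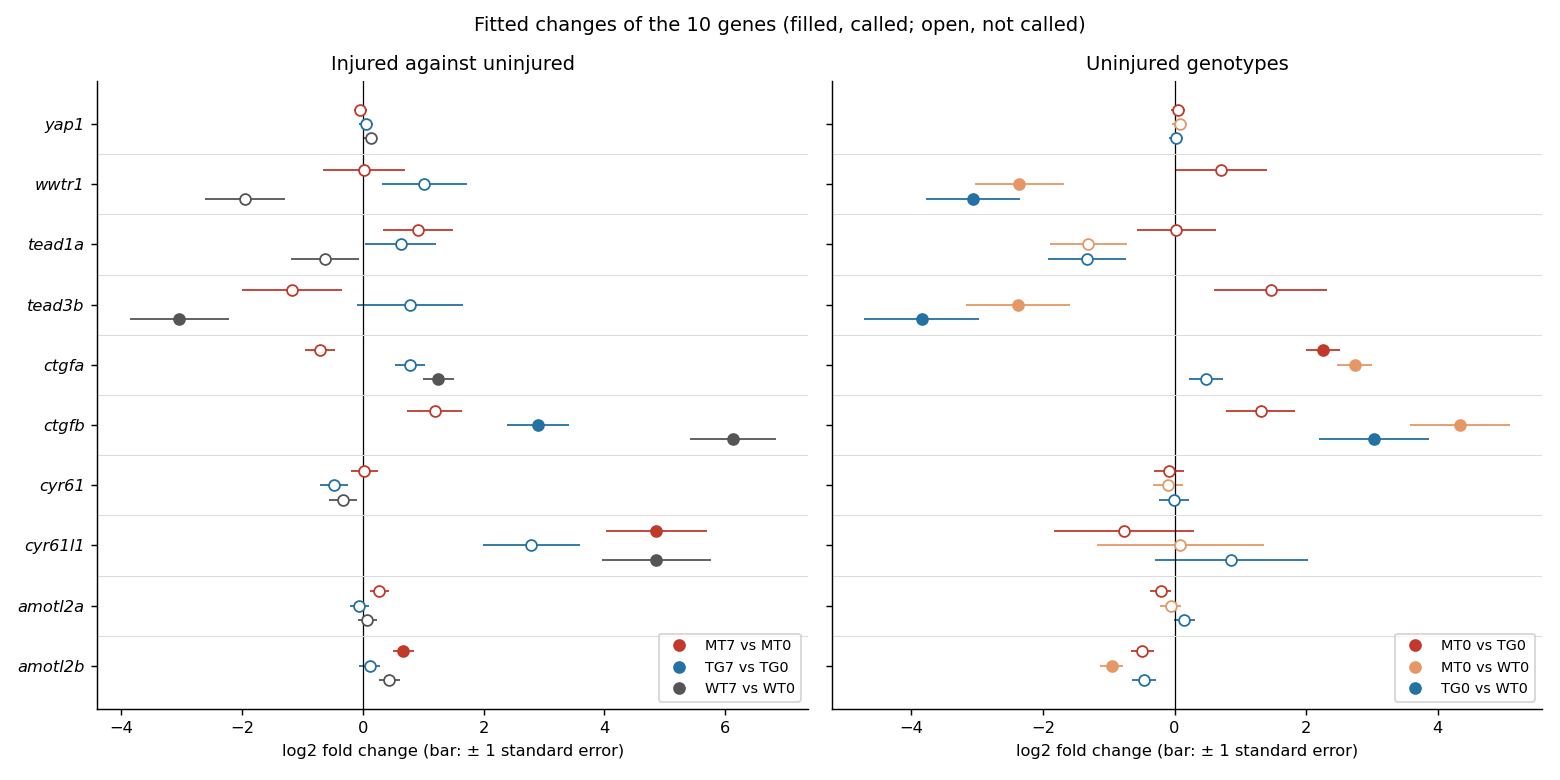
Fitted log2 fold change of the 10 genes with 1 standard error, for injured against uninjured apices in each genotype (left) and between uninjured genotypes (right); filled points passed the call rule and open points did not. *ctgfa* stands at 2.26 and 2.74 in MT0 against TG0 and WT0, and *yap1* stays near 0. How far *wwtr1* and *tead3b* lie below 0 against WT0 depends on WT0 replicate 1. Without it they stood at -1.14 and -1.38 in TG0 against WT0.

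Counts of called genes among the 10 are read here against the share of all tested genes called in the same direction. In MT0 against WT0, 2 of the 10 were called higher (13.6% of all tested genes were) and 3 lower (11.6%). The median log2 fold change was -0.08 beside 0.02 over all genes. Of the 3 lower, *wwtr1* and *tead3b* stood at -0.43 and 0.09 without WT0 replicate 1. In MT0 against TG0, 1 was higher (11.4%) and none lower (9.42% of all genes, and 1 of the 10 at an unadjusted p under 0.05 by edgeR's quasi-likelihood test, 0 by DESeq2 and 0 by limma-voom). In TG0 against WT0, 1 was higher (11.1%) and 2 lower (11.3%), and without WT0 replicate 1 no gene was called, nor without either TG0 library or by limma-voom.

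With injury, 3 of the 10 were called higher in WT7 than in WT0 (13.2% of all genes) and 1 lower (11.0%), which became 2 higher and none lower without WT7 replicate 2. The 1 lower in WT7 was *tead3b*, which stood at -0.58 without WT0 replicate 1. In TG7 against TG0, 1 was higher (6.69%), and none was lower (2.68%), where none had an unadjusted p under 0.05 by edgeR. DESeq2 called 3 higher in that comparison. In MT7 against MT0, 2 were higher (5.56%), and none lower (6.48%, with 1 at an unadjusted p under 0.05 and 0 by DESeq2 and limma-voom). *cyr61l1*, for which the filter built in a difference with injury, is 1 of the 3 higher in WT7 and 1 of the 2 higher in MT7. These 2 counts are therefore not a fair match for the share of all genes. The median change of the 10 genes was 0.15 in mutants, 0.70 in TG and 0.10 in WT, beside 0.00 to 0.01 over all genes.

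Between injured genotypes, 1 of the 10 was lower in MT7 than in WT7 (5.62% of all genes) and none higher (4.60%, with 1 at an unadjusted p under 0.05, 1 by DESeq2 and 0 by limma-voom). No gene was called in MT7 against TG7 by edgeR (0.742% of all genes were higher and 2.04% lower), DESeq2 or limma-voom, with 1 at an unadjusted p under 0.05. No gene was called in TG7 against WT7 (0.847% higher and 0.289% lower), where edgeR gave 1 an unadjusted p under 0.05, DESeq2 called 1 and limma-voom 0.

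The differences between injury changes were called for 2 of the 10, both below 0, in mutants against WT, where 1.51% of all genes were below 0 and 0.463% above. In mutants against TG none was called (0.347% of all genes above 0 and 1.06% below), with 3 of the 10 at an unadjusted p under 0.05, 1 called by DESeq2 and 0 by limma-voom. In TG against WT none was called (1.64% above 0 and 2.01% below), again with 3 at an unadjusted p under 0.05, and with 2 called by DESeq2 and 0 by limma-voom. Comparisons of this kind share MT0, TG0 or WT0, and their counts are not independent of each other.

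Upstream of Yap and Taz lies the kinase cascade. Of 29 listed genes for Hippo kinases, scaffolds and cadherins, 22 were in the tables and tested. The kinase *lats1* lay between 12.1 and 18.71 CPM and *lats2* between 38.35 and 58.24 CPM, with no call in any comparison. *mob1bb*, a Mob1 gene whose protein is known in mammals as a co-activator of Lats kinases, met the naming rule. It had 25.09 and 25.57 CPM in MT7, 12.95 and 12.75 CPM in MT0, 22.21 and 20.69 CPM in TG7, 28.11 and 20.07 CPM in TG0, 31.5 and 28.67 CPM in WT7, and 26.85 and 28.41 CPM in WT0. Both MT0 libraries were the lowest of the 12, and the fall was called against TG0 (-0.91 ± 0.16, edgeR adjusted p = 0.00344) and WT0 (-1.104 ± 0.16, adjusted p = 0.00119).

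*mob1bb* was named by its calls in MT0 against both controls, so those 2 calls are part of its selection. MT0 also enters the mutant injury change and its differences from the other changes, and a low MT0 favours values above 0 there. *mob1bb* rose with injury in mutants (0.98 ± 0.16, edgeR adjusted p = 0.00533), a call kept in all 19 alternative fits like the 2 before it. Its injury changes of -0.17 ± 0.16 in TG and 0.12 ± 0.15 in WT were not called. The difference between the mutant and the TG change was 1.15 ± 0.22 (adjusted p = 0.0382, kept in 6 of 19 alternatives), and that between the mutant and the WT change was 0.86 ± 0.22 (adjusted p = 0.0804).

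In MT0 against WT0, 1 of the 22 cascade genes was higher (*taok3a*, 0.50 ± 0.14, beside 13.6% of all genes) and 3 were lower (*mob1bb*, *amot* and *amotl1*, beside 11.6%). The median over the 22 was -0.13, and it turned to 0.12 without WT0 replicate 1. In TG0 against WT0, 5 were lower (*nf2b*, *wwc1*, *amot*, *amotl1* and *wtip*, beside 11.3% of all genes), and in WT7 against WT0, 2 were (*amotl1* and *dchs1b*, beside 11.0%). These genes were named after their values were seen. Without WT0 replicate 1, *mob1bb* in MT0 was the only call left in these 3 comparisons. In MT0 against TG0, with all libraries, *mob1bb* was the 1 gene of the 22 called lower, beside 9.42% of all genes. None was higher (11.4%), with 2 at an unadjusted p under 0.05 by edgeR's quasi-likelihood test. The median there was 0.21 beside 0.03 over all genes. *amotl1*, a further angiomotin-like gene, had at most 0.7766 CPM in any of the 10 libraries outside WT0, against 14.98 and 1.118 CPM in WT0.

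Of 10 further Tead genes and Vestigial-like cofactors listed, 7 were in the tables and 5 tested. *vgll2b* was higher in MT0 than in TG0 (3.166 and 2.244 CPM, against 0.4269 and 0.2012 CPM), with a log2 fold change of 3.11 ± 0.80 and an edgeR adjusted p of 0.0207. Its WT0 libraries had 1.559 and 0.5219 CPM. The *vgll2b* call was lost without either TG0 library (3.71, adjusted p = 0.0777, and 2.65, 0.146), without either MT0 library (2.84, 0.0703, and 3.34, 0.0543) and by limma-voom (3.07, 0.0696). *vgll4b*, whose product competes with Yap for Tead in mammals, was lower in TG0 than in WT0 (-0.61 ± 0.17, adjusted p = 0.03) and lower in WT7 than in WT0 (-0.56 ± 0.17, adjusted p = 0.0384), and neither was called without WT0 replicate 1. Both genes were named after their values were seen.

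Of the 8 other CCN symbols listed, 4 were in the tables and 3 tested. *wisp1b* had 2.898 and 2.413 CPM in MT7, 0.2261 and 0.9425 CPM in MT0, 3.189 and 3.395 CPM in TG7, 0.5488 and 0.8046 CPM in TG0, 3.932 and 3.004 CPM in WT7, and 0.7458 and 0.1491 CPM in WT0. As in *ctgfb*, all 6 injured libraries lay above all 6 uninjured ones. The rise was called in WT (2.91 ± 0.68, edgeR adjusted p = 0.013), and not in TG (2.26 ± 0.63, adjusted p = 0.0503) or mutants (2.13 ± 0.63, adjusted p = 0.052). The WT call was lost with only the compared libraries (2.91, adjusted p = 0.0551) and without either WT7 library (2.70 and 3.11). Without WT0 replicate 1 *wisp1b* was called in all 3 genotypes. *wisp1a* was called higher in WT7 than in WT0 (counts of 15 and 9, against 1 and 0) and in MT0 than in WT0 (10 and 11, against 1 and 0), and neither call was made without WT0 replicate 1.

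A wider set of Yap and Taz target genes, transferred by orthology from a signature known in mammalian tumours, held many genes that, like *ctgfa*, were higher in the uninjured mutants. Of 23 genes listed besides the CCN and angiomotin-like genes above, 20 were in the tables and 17 tested. Paralogs such as *f3a* and *f3b* were counted separately. The list was chosen with earlier results of these data known, so its counts beside the share of all genes are a description. Outside this count, *amotl2b* was called lower in MT0 than in WT0 (-0.95) and was not called against TG0 (-0.49). In MT0, *amotl2a* was not called against WT0 (-0.06) or TG0 (-0.21). Nor was *lats2*, which was listed with the cascade (0.15 and 0.23). Of the CCN genes besides *ctgfa*, *ctgfb* was called higher in MT0 than in WT0 (4.34) and not called against TG0 (1.31). *cyr61* (-0.10 against WT0 and -0.09 against TG0) and *cyr61l1* (0.09 and -0.77) were called against neither. In MT0 against TG0, 9 of the 17 were called higher (*myof*, *ankrd1a*, *asap1a*, *f3a*, *f3b*, *gadd45ab*, *ccdc80*, *nt5e* and *nuak2*), beside 11.4% of all genes. None was called lower, beside 9.42% of all genes. Below 0, 1 had an unadjusted p under 0.05 by edgeR, and DESeq2 and limma-voom each called 1. The median was 1.12 over the 17 and 0.03 over all genes. Against WT0, the MT0 libraries were higher in 7 (beside 13.6% of all genes) and lower in 2 (*crim1* and *tgfb2*, beside 11.6%). The median was 0.66 beside 0.02 over all genes. The 2 that were lower are among the genes set apart in WT0 replicate 1, without which 7 were higher (*rbms3* in place of *f3a*) and none lower, with a median of 1.23. The values rest in part on MT0 replicate 2. Without it, 5 were higher in MT0 than in TG0 (median 0.78), while against WT0 there were 6 higher and 1 lower (median 0.20).

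The naming rule gave 6 targets, all of which met its condition of the same call in MT0 against both controls. Their difference from both controls is thus part of how they were selected and not a separate result. The same MT0, TG0 and WT0 levels enter the injury changes and the differences between these changes. For the 6 targets, the selection therefore also favours a mutant change below the TG and WT changes. All 6 were called higher in MT0, and *ankrd1a* had the largest fold change among them. Its product is a stretch-responsive ankyrin-repeat protein of muscle. It had 25.59 and 20.03 CPM in MT7, 21.88 and 53.45 CPM in MT0, 9.681 and 8.425 CPM in TG7, 0.4269 and 0.2514 CPM in TG0, 22.09 and 25.09 CPM in WT7, and 1.085 and 1.566 CPM in WT0. MT0 thus lay in or above the range of injured hearts. The log2 fold change was 6.80 ± 0.52 against TG0 (edgeR adjusted p = 7.56e-05) and 4.83 ± 0.44 against WT0 (adjusted p = 0.000127). With injury *ankrd1a* rose in TG (4.74 ± 0.53, adjusted p = 0.000758) and in WT (4.16 ± 0.44, adjusted p = 0.000391), and its change in mutants was -0.73 ± 0.34 (adjusted p = 0.178). The mutant change differed from that in TG by -5.47 ± 0.64 (adjusted p = 0.00967) and from that in WT by -4.88 ± 0.55 (adjusted p = 0.00557), calls kept in 17 and 18 of 19 alternatives.

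*myof*, whose product myoferlin acts in membrane repair and fusion, was called higher with injury in all 3 genotypes. It had 34.82 and 25.78 CPM in MT7, 7.519 and 16.92 CPM in MT0, 29.27 and 25.11 CPM in TG7, 1.585 and 1.408 CPM in TG0, 18.06 and 16.92 CPM in WT7, and 1.763 and 1.938 CPM in WT0. The injury change was 1.30 ± 0.30 in mutants (edgeR adjusted p = 0.0229), 4.18 ± 0.37 in TG (adjusted p = 0.000272) and 3.24 ± 0.37 in WT (adjusted p = 0.000508). In the uninjured mutants *myof* was already 3.04 ± 0.37 above TG0 (adjusted p = 0.000536) and 2.73 ± 0.37 above WT0 (adjusted p = 0.000827). The mutant change was below the TG change by -2.88 ± 0.47 (adjusted p = 0.0224, kept in 10 of 19 alternatives), and its difference of -1.94 ± 0.47 from the WT change was not called (adjusted p = 0.0715). The mutant rise of *myof* was lost without MT0 replicate 1 (0.83, adjusted p = 0.0795), MT7 replicate 1 (1.06, 0.144) or either WT7 library (1.30, 0.0508, and 1.29, 0.051).

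*nuak2*, a kinase of the AMPK-related family, had 7.742 and 6.997 CPM in MT7, 8.932 and 9.11 CPM in MT0, 6.435 and 7.321 CPM in TG7, 3.232 and 2.816 CPM in TG0, 6.941 and 6.229 CPM in WT7, and 2.373 and 2.833 CPM in WT0. MT0 was above every other library, by 1.58 ± 0.20 against TG0 (edgeR adjusted p = 0.000685) and 1.79 ± 0.21 against WT0 (adjusted p = 4e-04). With injury it rose in TG (1.19 ± 0.20, adjusted p = 0.00694) and WT (1.34 ± 0.21, adjusted p = 0.00221) to levels that overlapped MT7 in TG7 and lay just below it in WT7, while the mutant change was -0.29 ± 0.19 (adjusted p = 0.339). The mutant change was called below the TG change (-1.48 ± 0.28, adjusted p = 0.0356) and the WT change (-1.63 ± 0.28, adjusted p = 0.0228), in 7 and 9 of 19 alternatives. Without WT0 replicate 1 the difference of *nuak2* from the WT change was not called (-1.52, adjusted p = 0.0638).

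*f3b*, a tissue factor gene of the coagulation pathway, had 186 and 180.5 CPM in MT0, against 81.53 and 67.14 CPM in TG0 and 69.56 and 57.56 CPM in WT0. MT7, with 128.8 and 126.3 CPM, was below MT0 (-0.52 ± 0.15, edgeR adjusted p = 0.0444) and above WT7 (0.66 ± 0.15, adjusted p = 0.0208), which had 79.9 and 81.29 CPM, while its difference of 0.53 ± 0.15 from TG7 was not called (adjusted p = 0.097). The *f3b* call in MT7 against MT0 was kept in 5 of 19 alternatives. It was lost without any 1 library of TG0, MT0, WT7, TG7 or MT7 (-0.51 to -0.56, adjusted p 0.0502 to 0.175), and library totals alone gave -0.22 (0.339). The call against WT7 was lost without either WT7 library (0.67, 0.153 and 0.128) or MT7 replicate 1 (0.66, 0.0834).

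*ccdc80*, a matrix-associated protein gene, had 75.15 and 85.93 CPM in MT7 and 99.04 and 89.35 CPM in MT0, while the 8 control libraries lay between 26.95 and 51.78 CPM. It was called higher in MT7 than in TG7 (0.90 ± 0.17, adjusted p = 0.0208) and WT7 (0.81 ± 0.17, adjusted p = 0.0142). The first of these was lost without any 1 library of TG7 or MT7 (adjusted p 0.059 to 0.198), and the second without WT7 replicate 1 (0.65, 0.144) or MT7 replicate 2 (0.73, 0.0537). *gadd45ab*, a growth-arrest and DNA-damage gene, had 9.837 and 19.61 CPM in MT0, against 6.22 and 4.627 CPM in TG0 and 2.441 and 3.504 CPM in WT0. Its call against TG0 was lost without MT0 replicate 2 (0.87, edgeR adjusted p = 0.135) or either TG0 library (1.67, 0.0572, and 1.25, 0.117).

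**Figure D4:**
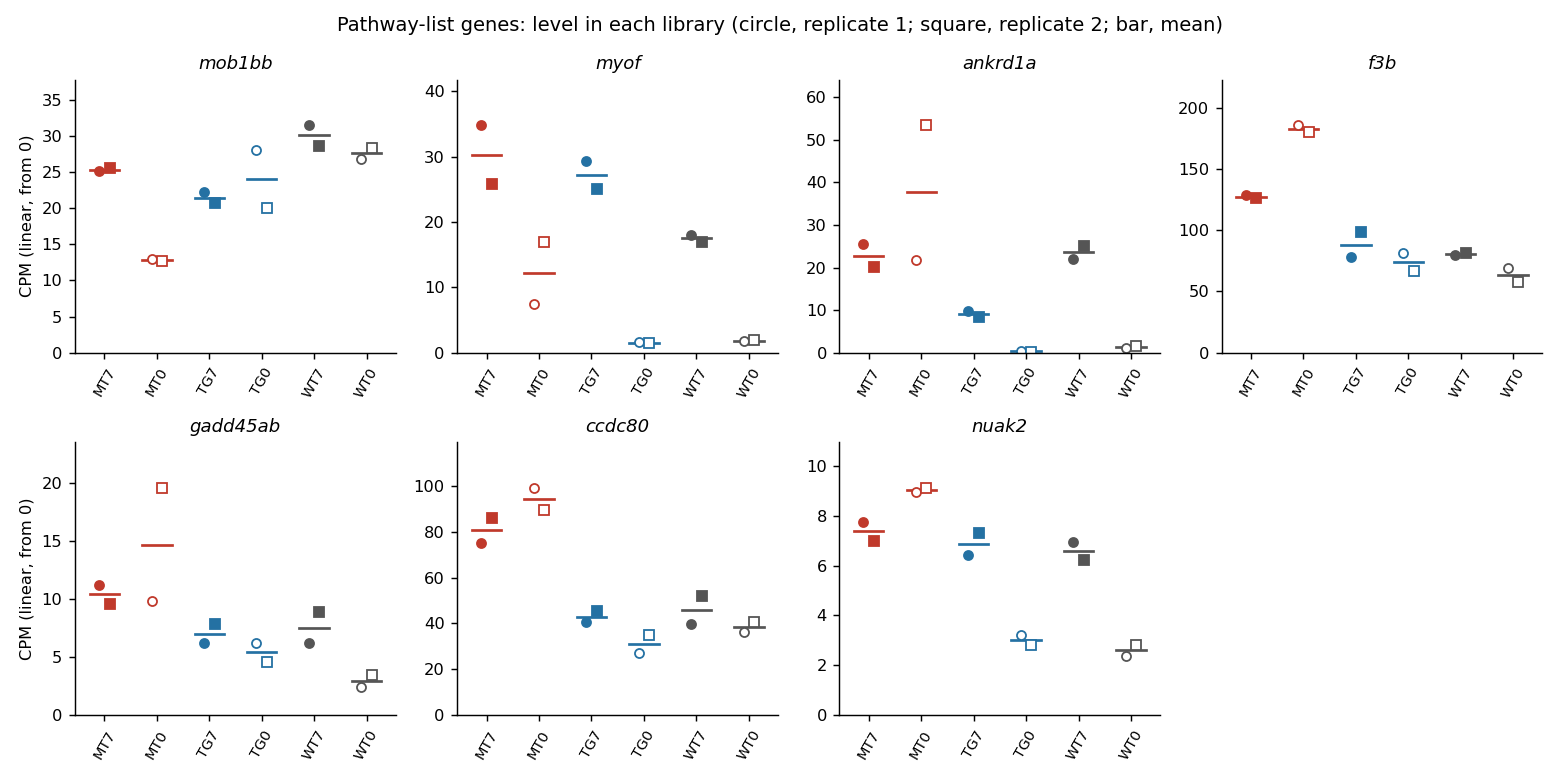
Level of *mob1bb* and the 6 named target genes in every library (CPM, linear axis from 0; filled, injured; open, uninjured; circle, replicate 1; square, replicate 2; bar, mean of the 2). These genes were selected by their calls in MT0 against both controls. The 6 targets have both MT0 libraries above all TG0 and WT0 libraries, *mob1bb* has them below (12.95 and 12.75 CPM), and in *ankrd1a* and *myof* the injured TG and WT libraries stand well above the uninjured ones.

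With injury the target set moved less evenly. For *fjx1* the filter on low counts built in a difference with injury. Counts of higher genes that include it are thus not a fair match for the share of all genes. In WT7 against WT0, 5 were higher (*myof*, *ankrd1a*, *fjx1*, *gadd45ab* and *nuak2*, beside 13.2% of all genes) and 3 lower (*asap1a*, *crim1* and *tgfb2*, beside 11.0%). Without WT0 replicate 1 these were 3 higher and none lower, and *gadd45ab* was among those lost (1.12, edgeR adjusted p = 0.159, against 1.35 ± 0.36 with all libraries). In TG7 against TG0, 4 were higher (*myof*, *ankrd1a*, *nt5e* and *nuak2*, beside 6.69% of all genes) and none lower (2.68%), with a median of 0.28 over the 17. None of the 17 had an unadjusted p under 0.05 below 0 there, and DESeq2 and limma-voom called none lower.

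In MT7 against MT0, 2 of the 17 were higher (*myof* and *fjx1*, beside 5.56% of all genes) and 3 lower (*f3a*, *f3b* and *igfbp3*, beside 6.48%), and the median was -0.29. Without MT0 replicate 2, 1 was higher and 2 lower, and the median turned to 0.05. *fjx1* had counts of 67 and 12 in MT7 and 19 and 7 in WT7, and at most 3 in any uninjured library. It passed the filter on low counts through injured libraries, so a difference with injury was built into its presence, as for *cyr61l1*. *igfbp3*, for a secreted binding protein of insulin-like growth factors, had 51.59 and 40.49 CPM in MT7, and the other 10 libraries lay between 74.48 and 100.3 CPM. It was called lower in MT7 than in MT0 (-0.95 ± 0.18, edgeR adjusted p = 0.00938), TG7 (-0.82 ± 0.17, adjusted p = 0.0371) and WT7 (-0.86 ± 0.17, adjusted p = 0.0137). With library totals alone none of these was called (-0.65, adjusted p = 0.0688, -0.55, 0.17, and -0.59, 0.0941). With only the compared libraries the calls against MT0 (-0.92, adjusted p = 0.0767) and TG7 (-0.8, 0.0675) were lost. The call against TG7 was also lost without any 1 library of TG0, WT7, TG7 or MT7. The call against WT7 was lost without either WT7 library (-0.83 and -0.87) or MT7 replicate 2 (-0.68). *igfbp3* and *fjx1* were named after their values were seen.

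Markers of other cell types moved with some of these genes. Of the red blood cell markers, 5 of 5 were higher in WT7 than in WT0 (summed level 5642 to 6495 CPM, against 1994 to 2315 CPM) and 4 of 5 were higher in TG7 than in TG0 (13090 to 15380 CPM, against 4267 to 6915 CPM). In MT7 against MT0, 1 of 5 was higher (5270 to 9599 CPM, against 3760 to 3840 CPM). Red blood cell markers also differed between genotypes: 4 of 5 were higher in TG0 than in WT0 (11.1% of all genes). In TG7, 3 were higher than in WT7 (0.847%), and 2 were lower in MT7 than in TG7 (2.04%). Of 6 leukocyte markers, 2 were higher in TG7 than in TG0, 1 in MT7 than in MT0 and none in WT7 than in WT0. In MT0, 2 leukocyte markers were higher than in TG0 and none higher than in WT0. Of 6 endothelial markers, 4 were lower in WT7 (484.8 to 517 CPM) than in WT0 (992.5 CPM in replicate 1, 718.7 CPM in replicate 2). In TG7 against TG0 none was lower, and 1 was lower in MT7 than in MT0. Of all tested genes, 13.2% were called higher and 11.0% lower in WT7, 6.69% and 2.68% in TG7, and 5.56% and 6.48% in MT7. In MT0, 11.4% were higher than in TG0 and 13.6% higher than in WT0. No marker count is given here without WT0 replicate 1. Of 6 epicardial and fibroblast markers, 3 were called higher in MT0 than in TG0 and 3 higher than in WT0, and their summed level was 258 to 416.2 CPM in MT0, 177.2 to 179.1 CPM in TG0 and 166.3 to 237.1 CPM in WT0. With injury the sum was 521.8 to 591.3 CPM in MT7, 423.3 to 425.1 CPM in TG7 and 306.8 to 366.9 CPM in WT7. Of 5 smooth muscle and bulbus markers, 3 were higher in MT0 than in TG0 and 4 higher than in WT0, with sums of 680.1 to 1266 CPM in MT0, 199.8 to 415.7 CPM in TG0 and 264.1 to 304.9 CPM in WT0. Every marker of these lists found in the tables was detected, and their part in the differences of *ctgfa*, *ctgfb*, *cyr61l1* and the target set was not tested. MT0 replicate 2, which was higher than MT0 replicate 1 in *ctgfb*, *ankrd1a*, *myof* and *gadd45ab*, had the larger sum of epicardial and smooth muscle markers and of 6 leukocyte markers (191.6 CPM, against 91.92 CPM in replicate 1). *f3a* had 10.97 and 16.29 CPM in MT0 replicates 1 and 2, *asap1a* 14.7 and 22.66 CPM, and *nt5e* 17.64 and 31.24 CPM. These targets, called higher in MT0 than in TG0, were thus also higher in replicate 2. The cardiomyocyte sum was lower in MT0 replicate 2 (34620 CPM, against 48550 CPM in replicate 1). Some other genes called higher in MT0 did not share the rise in replicate 2. In replicates 1 and 2, *ctgfa* (199.6 and 213.8 CPM) and *nuak2* (8.932 and 9.11 CPM) were close. *f3b* (186 and 180.5 CPM) and *ccdc80* (99.04 and 89.35 CPM) were lower in replicate 2.

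*ctgfb* varied most between groups among the 10 genes, with a variance of 3.74 of its group means on the log2 scale. Over the 12 libraries the genes with the most similar log2 CPM, out of 9074 candidates, were *sparc* (Pearson r = 0.984), *loxl2b* (0.983), *col1a2* (0.977), *postnb* (0.976) and *mmp2* (0.976). Their products are the matrix glycoprotein osteonectin, a collagen cross-linking enzyme, a type I collagen chain, periostin and a gelatinase. The 12 points share 2 injury states and 3 genotypes, and the values are given as a description.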

How the data were processed

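Whole ventricular apices were sequenced as 12 bulk RNA libraries (TRIzol, TruSeq RNA v2, HiSeq, single reads of 100 bases). The authors aligned reads with STAR to GRCz10 and counted them per gene with featureCounts, and the deposited files hold raw counts. The kit does not mark strand. How reads shared by paralogs, such as *ctgfa* and *ctgfb*, were counted is not given in the sources used here. Their levels are uncertain to the extent that they share reads, which was not measured.

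Counts were fitted with edgeR 4.0.16 (R 4.3.3): TMM scaling, a filter on low counts (minimum count 10, minimum total 15), 6 group means over all 12 libraries and quasi-likelihood tests of 9 pairs of groups and 3 differences between injury changes, with Benjamini-Hochberg adjustment over all 19014 tested genes. A call required an adjusted p below 0.05 together with a log2 fold change beyond 0.5 in size. Intervals are at 95%, unadjusted. Ratios of summed counts have exact conditional binomial intervals, which leave out the spread between libraries. The fit was tested on simulated data. Further genes were named where called the same way in all 3 injury comparisons or in MT0 against both controls (at most 6 per list), or as the 5 nearest genes by correlation.

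The 10 genes, the gene lists and the marker lists were chosen with earlier results of these data known. Alternatives were RLE size factors, no filter, DESeq2 1.42.0, limma-voom 3.58.1, a replicate block, only the compared libraries, no fold threshold, library totals alone and each library left out in turn. Replicate numbers did not pair the samples. No gene coordinates are given, because the annotation at hand is of another build.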

Additional observations from a re-analysis of the deposited data

Results flagged for a closer look

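The injury change of *ctgfa* differed between mutants and WT by -1.97 on the log2 scale (edgeR quasi-likelihood test, adjusted p = 0.0265), and that of *ctgfb* by -4.94 (adjusted p = 0.0276). For *ctgfb*, the differences of mutants from TG (-1.71, adjusted p = 0.263) and of TG from WT (-3.23, adjusted p = 0.0911) were not called. Among genes without such a call, the injured and uninjured libraries separated in opposite directions in the 2 genotypes for *ctgfa* in mutants against TG (-1.5, adjusted p = 0.0709), *tead3b* in mutants against TG (-1.95, adjusted p = 0.499) and in TG against WT (3.82, adjusted p = 0.103), and *amotl2a* in mutants against TG (0.33, adjusted p = 0.533). In these 4 cases the test of the difference did not pass. The groups of 2 libraries are too small for a test of single outlying samples.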

How the results depend on the processing

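Over the 19 called pairs of gene and comparison, 271 of 360 alternatives kept the call, 88 lost it and 1 reversed: *tead3b* in MT0 against WT0 was 0.087 without WT0 replicate 1 and ranged from -3.23 to 0.087 with each library left out. The count of called genes among the 10 changed by over 1.5 times as follows. Smaller changes were 5 by DESeq2, 5 without a filter, 3 by limma-voom and 3 with only the compared libraries in WT7 against WT0 (4 in the report) and 4 with library totals alone in MT0 against WT0 (5 in the report). By limma-voom it was 3 in MT0 against WT0, 0 in TG0 against WT0 and 1 in the mutant minus WT injury change. By DESeq2 it was 3 in TG7 against TG0, 2 in MT7 against WT7, 1 in TG7 against WT7, 1 in the mutant minus TG change and 2 in the TG minus WT change. With only the compared libraries it was 2 in MT0 against WT0, 0 in TG0 against WT0, 3 in TG7 against TG0, 1 in MT7 against MT0, 0 in MT7 against WT7, 1 in TG7 against WT7 and 0 in the mutant minus WT change. Without a filter it was 1 in the mutant minus TG change, and with library totals alone (added after seeing the data, as were the list counts without a library) it was 3 in TG7 against TG0. Library totals moved the median of all genes by up to 0.302 (MT7 against MT0).

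With each library left out, the count ranged from 3 to 6 in MT0 against WT0, 1 to 2 in MT0 against TG0, 0 to 3 in TG0 against WT0, 2 to 5 in WT7 against WT0, 0 to 2 in TG7 against TG0, 0 to 2 in MT7 against MT0, 0 to 1 in MT7 against WT7, 0 to 1 in MT7 against TG7, 0 to 1 in TG7 against WT7, 0 to 4 in the mutant minus WT change and 0 to 2 in the TG minus WT change. A group left with 1 library is assumed to vary like the others.

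With the replicate block the count was 3 in MT0 against WT0 and 1 in MT7 against MT0, and *wwtr1* (-2.11, adjusted p = 0.0516) and *tead3b* (-2.07, adjusted p = 0.0923) in the first and *amotl2b* (0.67, adjusted p = 0.0532) in the second were lost. It changed no other call. Samples with the same number share only the number: deviations from the group means correlated at -0.281 to 0.142 over 9074 genes.

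With 2 libraries per group, genes such as *ctgfb*, *cyr61l1* and the Tead genes, at a few counts in some libraries, carry wide intervals. A change that was not called is not shown to be absent, and tissue composition was not measured.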
